A study of Mus musculus with 22 samples.

Results

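The BCL2 family and the death receptor FAS were followed through 9 transcripts, chosen by gene symbol from the 24091 gene names of the count table. They were the survival genes Bcl2, Bcl2l1 and Mcl1, the effectors Bax and Bak1, the BH3-only genes Bcl2l11, Bbc3 and Pmaip1, and the receptor gene Fas. All 9 were present, and all 9 were among the 12841 genes that passed the filter on low counts. The libraries held T cells of wild-type C57BL/6 donors, recovered from wild-type BALB/C mice that had been lethally irradiated and then given donor spleen and bone marrow cells. From day 0 to day 6, on alternate days, recipients received either an IL-2-blocking monoclonal antibody (anti-IL-2) or control IgG, and donor CD4+ or CD8+ cells were sorted from spleen or colon (gut) on day 7. This gave 8 groups of cell type, tissue and treatment, with n = 2 libraries in each of the gut IgG groups and n = 3 in each of the others. All 8 groups share the irradiation and the transfer, and no untreated or syngeneic recipient was analysed here. Recipients lacking PD-L1, which the series title names, were not analysed here.

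The 22 libraries held between 14628806 and 24518362 counts and fell into batches 181201, 181212 and 190306, and batch 181201 has no gut IgG library. Levels are given as CPM, the count scaled to sequencing depth, with library sizes adjusted by TMM. The sort was seen in the counts: Cd4 ran from 1802 to 2610 CPM in CD4 libraries and from 0.321 to 7.21 CPM in CD8 libraries, while Cd8a ran from 911.8 to 2130.1 CPM in CD8 libraries and from 0.115 to 3.60 CPM in CD4 libraries. The labels leave unsaid whether libraries of a batch share animals or pools, so p-values measure the spread between libraries, which may in part be technical. For the 5 CD8 IgG libraries a free-text label names the other tissue, and the tissue of the source name was used.

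Libraries of batch 190306 went against the treatment labels of the other batches. Il2ra, which encodes CD25 and is itself induced by IL-2, was lower in the anti-IL-2 library than in the IgG library in each of the 6 within-batch pairs of batches 181201 and 181212, by 1.11 to 2.05 in log2 CPM. In batch 190306 it was higher in each of the 4 pairs, by 1.56 to 1.83. No library was relabelled, and treatment results are given with and without that batch. In it, "anti-IL-2" and "IgG" below mean only the libraries so labelled.

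Mitochondrial apoptosis is set by binding between BCL2 family proteins. BCL2, BCL-XL (the Bcl2l1 product) and MCL1 hold BAX and BAK in check, and the BH3-only proteins BIM (Bcl2l11), PUMA (Bbc3) and NOXA (Pmaip1) bind the guardians and release the effectors, which then open the outer mitochondrial membrane. FAS acts from the cell surface: bound by FAS ligand, it recruits FADD and caspase-8. In T cells, cytokines that signal through the common gamma chain, IL-2 and IL-7 among them, sustain Bcl2 and Mcl1, while BIM ends responses when cytokine runs out, and IL-2 is also known to prepare T cells for FAS-mediated death.

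In the GRCm38 build the genes lie apart from one another: Bcl2 at chr1:106538178-106714274, Mcl1 at chr3:95658788-95663176, Bak1 at chr17:27019810-27029009 and Fas at chr19:34290666-34327772. Bcl2l1 (chr2:152780668-152831728) and Bcl2l11 (chr2:128126038-128162547) share a chromosome, as do Bax (chr7:45461697-45466898) and Bbc3 (chr7:16308393-16318205). RefSeq promoter windows of GRCm38.p6, the 250 bases before a transcript start, were found for 8 of the 9 members, 13 windows in all. They were searched on both strands, with motifs chosen after the treatment results were known, for the STAT letters TTCNNNGAA, the FOXO letters TGTTTAC and, by name, an NF-kB motif. The 3 windows shown are from the members whose levels moved most (Fas and Bbc3) and from the BH3-only gene best known as a FOXO target (Bcl2l11). Bbc3 had 3 windows and Bcl2l11 had 2, and for each the window that holds the FOXO letters is shown. Capitals mark the motif match, and each sequence runs 5′ to 3′ on the gene's strand.
Fas: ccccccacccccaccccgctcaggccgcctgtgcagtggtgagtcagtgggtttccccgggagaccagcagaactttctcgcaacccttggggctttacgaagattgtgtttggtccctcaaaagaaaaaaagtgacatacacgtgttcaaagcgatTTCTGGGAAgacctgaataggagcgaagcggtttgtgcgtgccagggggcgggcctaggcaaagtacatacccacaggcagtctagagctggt
Bbc3: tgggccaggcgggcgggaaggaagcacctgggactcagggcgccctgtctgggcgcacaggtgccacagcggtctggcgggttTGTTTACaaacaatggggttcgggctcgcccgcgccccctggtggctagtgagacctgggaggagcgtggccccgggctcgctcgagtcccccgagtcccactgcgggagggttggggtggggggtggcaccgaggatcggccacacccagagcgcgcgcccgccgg
Bcl2l11: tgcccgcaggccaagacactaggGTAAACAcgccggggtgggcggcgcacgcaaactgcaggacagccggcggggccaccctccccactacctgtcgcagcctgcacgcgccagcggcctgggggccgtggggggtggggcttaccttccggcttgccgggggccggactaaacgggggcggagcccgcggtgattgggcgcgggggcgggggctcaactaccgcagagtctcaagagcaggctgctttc
The Fas window (chr19:34290409-34290658, plus strand) lies before the annotated gene and holds the STAT letters 93 bases before the start. These letters occur in 7.02% of 32851 windows of that length. The Bbc3 window (chr7:16310011-16310260, plus strand) lies in an intron of the longer transcripts, upstream of an alternative start, with the FOXO letters 167 bases before that start. In the Bcl2l11 window (chr2:128125788-128126037, plus strand) the FOXO letters stand 227 bases before the start, on the opposite strand. FOXO letters occur in 3.17% of windows, a share per window, while Bbc3 and Bcl2l11 each had several windows searched. The NF-kB motif, in 1.41% of windows, was found before Mcl1 and in 1 window each of Bbc3 and Bcl2l1. A match is a description of the letters and not evidence of binding.

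Tissues and cell types were compared between libraries of the same batch and treatment, which form 6 blocks (5 of them hold both tissues), and calls are at an adjusted p of 0.05. Per kilobase of exon, so that genes can be set side by side, Mcl1 stood highest in every population, with means from 125 to 146 CPM per kb. Bak1 came next, with means from 79.6 to 109 CPM per kb, followed by Bax at 47.0 to 53. Bcl2, Bcl2l11 and Pmaip1 had means between 19.2 and 37.4 CPM per kb. In gut CD4 cells Bcl2l11 (33.9 ± 5.92) and Pmaip1 (34.7 ± 13.6; SD, n = 5) differed by less than their spread, and Bcl2 (20.3 ± 2.59) lay below every Bcl2l11 library. Bcl2l1 (11.8 to 15.3), Bbc3 (7.15 to 22.2) and Fas (9.77 to 14.2) were lowest. Mcl1 and Bak1 did not overlap in spleen CD4 cells (118 to 161 against 58.8 to 108 CPM per kb), but overlapped in gut CD8 cells (114 to 147 against 87.3 to 133). Exon length was the union over annotated transcripts, which understates genes expressed from short transcripts. Of the exon bases of Bak1, 25.5% also belong to Ggnbp1 on the opposite strand, 12.2% of those of Bax to Gm45808 on the same strand, and 6.09% of those of Bcl2 to the antisense gene D630008O14Rik. The strand setting of the counting is not given in the sources used here, so such reads cannot be told apart.

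**Figure D1:**
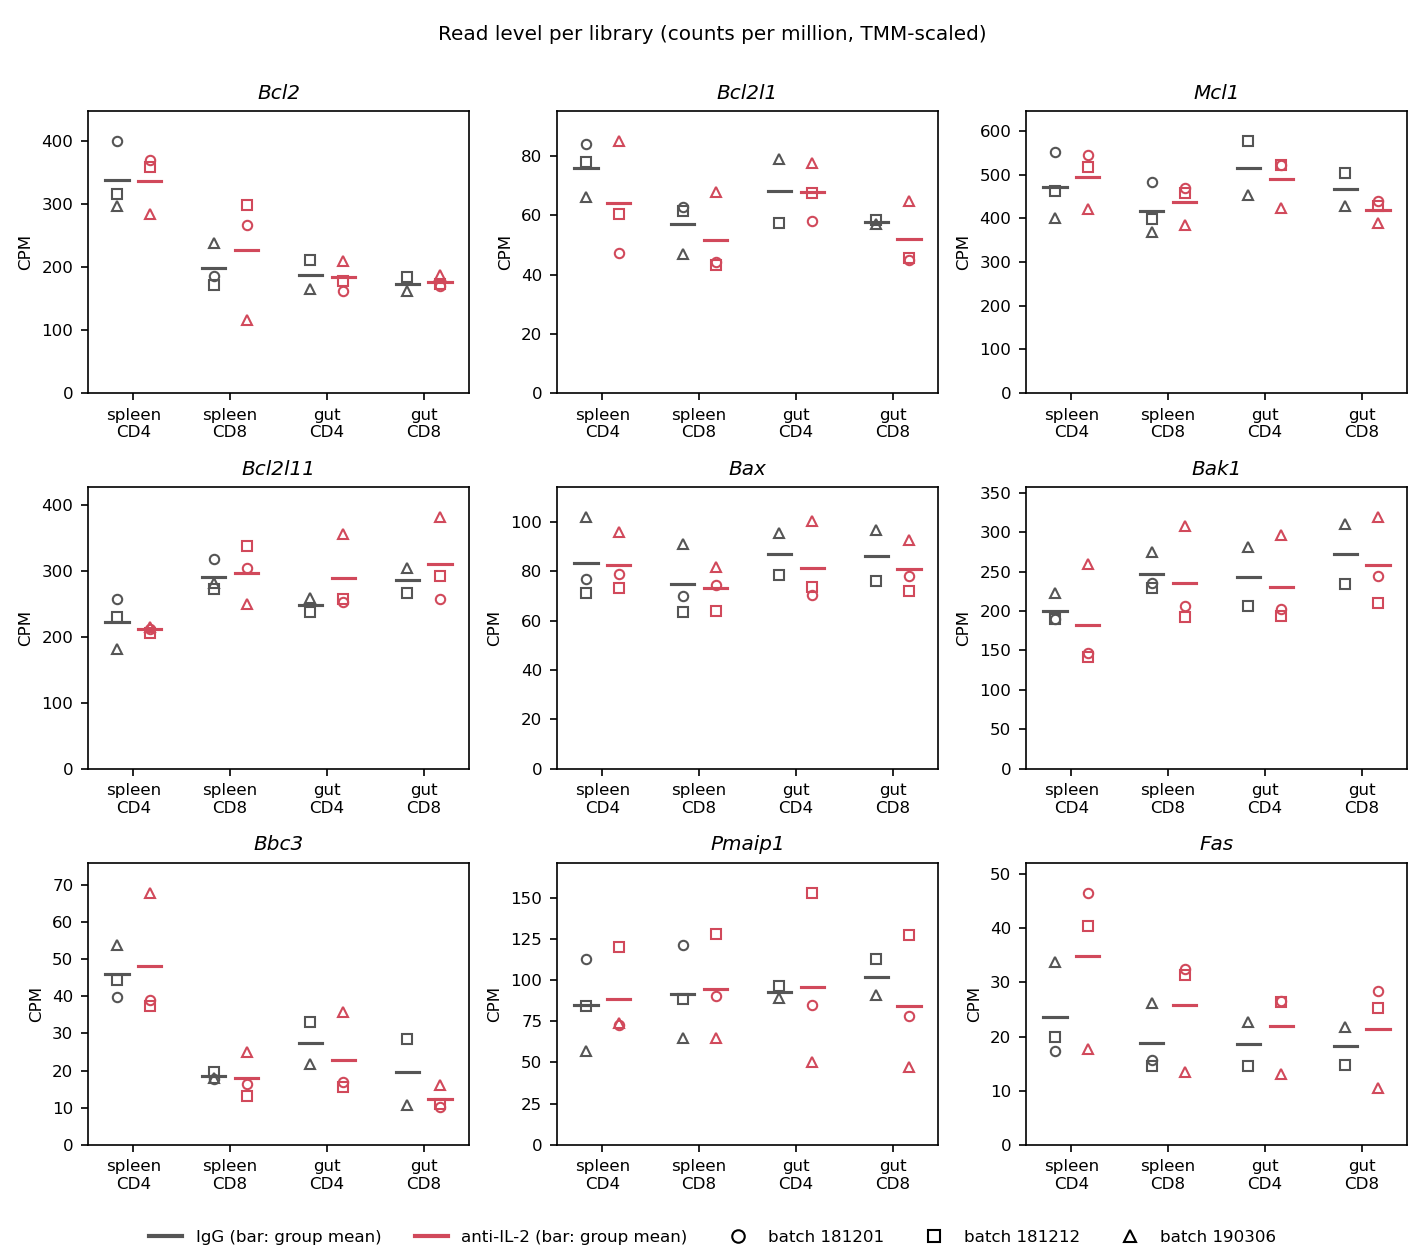
Level of each gene in CPM (vertical axes, from 0) in the 22 libraries, by tissue and cell type; colour gives the labelled treatment, marker shape the batch, and bars the group mean. Bcl2 and Bbc3 were highest in spleen CD4 cells, and Fas was higher under anti-IL-2 in the circles and squares (batches 181201 and 181212) but lower in the triangles (batch 190306).

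Among the survival genes, Bcl2 was highest in spleen CD4 cells, where every library lay above every gut library. Its levels there were 399.9, 316 and 297 CPM under IgG and 369.8, 359 and 284 CPM under anti-IL-2 (batches 181201, 181212 and 190306). Gut CD4 cells held 212 and 165 CPM under IgG (batches 181212 and 190306) and 163, 179 and 209.5 CPM under anti-IL-2, so no gut CD4 library reached the lowest spleen CD4 library. The gut to spleen difference in CD4 cells was -0.84 ± 0.19 on the log2 scale (SE; edgeR quasi-likelihood, adjusted p = 0.00198), lower in 5 of 5 pairs matched for batch and treatment. CD8 cells held 116 to 298 CPM of Bcl2 in spleen and 163 to 188 CPM in gut, and the tissues overlapped. The highest spleen CD8 library (anti-IL-2, batch 181212) lay above the 2 lowest spleen CD4 libraries, both of batch 190306. The gut to spleen difference in CD8 cells was -0.24 ± 0.19 (edgeR adjusted p = 0.306). It passed the threshold without the spleen CD8 anti-IL-2 library of batch 190306 (-0.40, edgeR adjusted p = 0.04). The tissue difference was not shown to depend on cell type (0.60 ± 0.26, edgeR adjusted p = 0.197). Against CD8 cells, spleen CD4 cells held more Bcl2 by 0.68 ± 0.17 (edgeR adjusted p = 0.00356, 6 of 6 pairs), and in gut the difference was 0.08 ± 0.19 (edgeR adjusted p = 0.752).

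Bcl2l1 and Mcl1 differed by cell type. Bcl2l1 was higher in CD4 than in CD8 cells by 0.36 ± 0.08 in spleen (6 of 6 pairs, edgeR adjusted p = 0.00131) and by 0.34 ± 0.09 in gut (4 of 5 pairs, edgeR adjusted p = 0.00646). Mcl1, which guards against NOXA and BIM, was higher in CD4 cells by 0.18 ± 0.06 in spleen (6 of 6 pairs, edgeR adjusted p = 0.0115) and by 0.18 ± 0.06 in gut (5 of 5 pairs, edgeR adjusted p = 0.0189). Over the 22 libraries Mcl1 ran from 369.7 to 576 CPM. In gut the Mcl1 call was lost on leaving out the CD4 IgG library of batch 181212 or the CD8 anti-IL-2 library of batch 181201 or 181212, with edgeR adjusted p of up to 0.0776. For gut against spleen, Bcl2l1 gave 0.03 ± 0.09 in CD4 and 0.05 ± 0.09 in CD8 cells, and Mcl1 0.09 ± 0.06 and 0.08 ± 0.06, none past the threshold.

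The effectors differed from each other. Bak1 was lower in CD4 than in CD8 cells in spleen (log2 difference -0.34 ± 0.05, 6 of 6 pairs, edgeR adjusted p = 5.15e-06) and in gut (-0.17 ± 0.05, 5 of 5 pairs, edgeR adjusted p = 0.0124). It was higher in gut than in spleen by 0.31 ± 0.05 in CD4 cells (5 of 5 pairs, edgeR adjusted p = 6.68e-05) and by 0.13 ± 0.05 in CD8 cells (5 of 5 pairs, edgeR adjusted p = 0.0386). The CD8 tissue call for Bak1 was lost in 8 of 11 fits that left out 1 library. Bax ran from 63.5 to 102 CPM over all libraries, with the highest library of each population in batch 190306. It was higher in spleen CD4 than in spleen CD8 cells by 0.16 ± 0.04 (edgeR adjusted p = 0.00331) and in gut than in spleen CD8 cells by 0.15 ± 0.05 (edgeR adjusted p = 0.0117).

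Of the BH3-only genes, Bbc3 showed the widest differences. Spleen CD4 cells held 39.8, 44.5 and 53.9 CPM under IgG and 39.0, 37.5 and 67.9 CPM under anti-IL-2 (batches 181201, 181212 and 190306). Spleen CD8 cells held 17.7, 19.6 and 18.1 CPM under IgG and 16.3, 13.1 and 25 CPM under anti-IL-2, all below every spleen CD4 library. The CD4 to CD8 difference in spleen was 1.37 ± 0.16 (log2, 6 of 6 pairs, edgeR adjusted p = 1.93e-06) and in gut 0.70 ± 0.18 (5 of 5 pairs, edgeR adjusted p = 0.00477). In gut CD4 cells Bbc3 stood at 33.2 and 21.7 CPM under IgG (batches 181212 and 190306) and at 17, 15.4 and 35.9 CPM under anti-IL-2, all below the lowest spleen CD4 library. That tissue difference was -1.01 ± 0.17 (5 of 5 pairs, edgeR adjusted p = 0.000138), and in CD8 cells it was -0.34 ± 0.18 (edgeR adjusted p = 0.128). Without the gut CD8 IgG library of batch 181212 the CD8 difference passed the threshold (-0.60, edgeR adjusted p = 0.00124).

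Bcl2l11 was lower in spleen CD4 cells (181 to 257 CPM) than in spleen CD8 cells (249 to 337 CPM), by -0.44 ± 0.10 on the log2 scale (6 of 6 pairs, edgeR adjusted p = 0.00115). It was higher in gut than in spleen CD4 cells by 0.36 ± 0.11 (5 of 5 pairs, edgeR adjusted p = 0.0111). That call was lost without batch 190306 (0.16, edgeR adjusted p = 0.0929). It was also lost with 8 groups and batch as a term (0.30, edgeR adjusted p = 0.0817). The 19 alternatives gave adjusted p from 0.00253 to 0.0929. As a description of Bcl2 and its antagonist in the same library, Bcl2 reads per Bcl2l11 read were 1.56 ± 0.18 in spleen CD4 cells (SD, n = 6, range 1.32 to 1.74). The other populations stood at 0.715 ± 0.179 (spleen CD8, n = 6), 0.691 ± 0.118 (gut CD4, n = 5) and 0.595 ± 0.083 (gut CD8, n = 5), with 0.891 as the highest library. The ratio of reads depends on the lengths of the transcripts, so it is comparable between libraries and not as a number of molecules.

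Pmaip1 did not pass the threshold in any tissue or cell type comparison. Its log2 differences ran from -0.09 ± 0.13 (CD4 against CD8, spleen) to 0.17 ± 0.14 (gut against spleen, CD4), and the latter passed without the spleen CD4 anti-IL-2 library of batch 190306 (0.30, edgeR adjusted p = 0.0421). Fas was lower in gut than in spleen, by -0.57 ± 0.06 on the log2 scale in CD4 cells (5 of 5 pairs, edgeR adjusted p = 1.35e-06) and -0.25 ± 0.06 in CD8 cells (4 of 5 pairs, edgeR adjusted p = 0.00443). In spleen it was higher in CD4 than in CD8 cells by 0.38 ± 0.06 (6 of 6 pairs, edgeR adjusted p = 2.61e-05), while in gut the difference was 0.06 ± 0.07 (edgeR adjusted p = 0.512). The tissue difference in Fas was smaller in CD8 than in CD4 cells by 0.32 ± 0.09 (edgeR adjusted p = 0.0468), and that call was lost in 16 of 22 fits that left out 1 library, with edgeR adjusted p of up to 0.102. Without the blocks the Fas tissue differences did not pass the threshold, and in CD8 cells the call was also lost without batch 190306 (-0.21, edgeR adjusted p = 0.0859, in a range of 0.00118 to 0.814 over the alternatives).

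Counted together, 5 of 9 members differed between gut and spleen in CD4 cells, where 49.3% of all genes tested did, and 3 of 9 in CD8 cells, where 47.8% did. Between CD4 and CD8 cells 8 of 9 differed in spleen (58.1% of all genes) and 4 of 9 in gut (46% of all genes). The tissue difference depended on cell type in 1 of 9 members, Fas, against 4.65% of all genes. The median log2 difference over the 9 members was 0.03 and 0.05 for gut against spleen and 0.18 and 0.06 for CD4 against CD8 cells, beside medians within 0.014 of 0 over all genes. These 4 comparisons share libraries and are not independent of one another. Without batch 190306 the count in CD8 cells for gut against spleen was 0 of 9 (35.4% of all genes were called) and that for CD4 against CD8 cells in gut 1 of 9 (36.4%), with Bcl2l1, Bak1 and Bbc3 past the threshold no longer (edgeR adjusted p = 0.0785, 0.0514 and 0.154). Without the blocks the counts were 3 of 9 and 0 of 9 for gut against spleen in CD4 and CD8 cells, 3 of 9 and 0 of 9 for CD4 against CD8 cells in spleen and gut, and 0 of 9 for the dependence on cell type. The shares of all genes called were then 25.4% and 24.6%, 36.7% and 23.2%, and 0.28%.

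**Figure D2:**
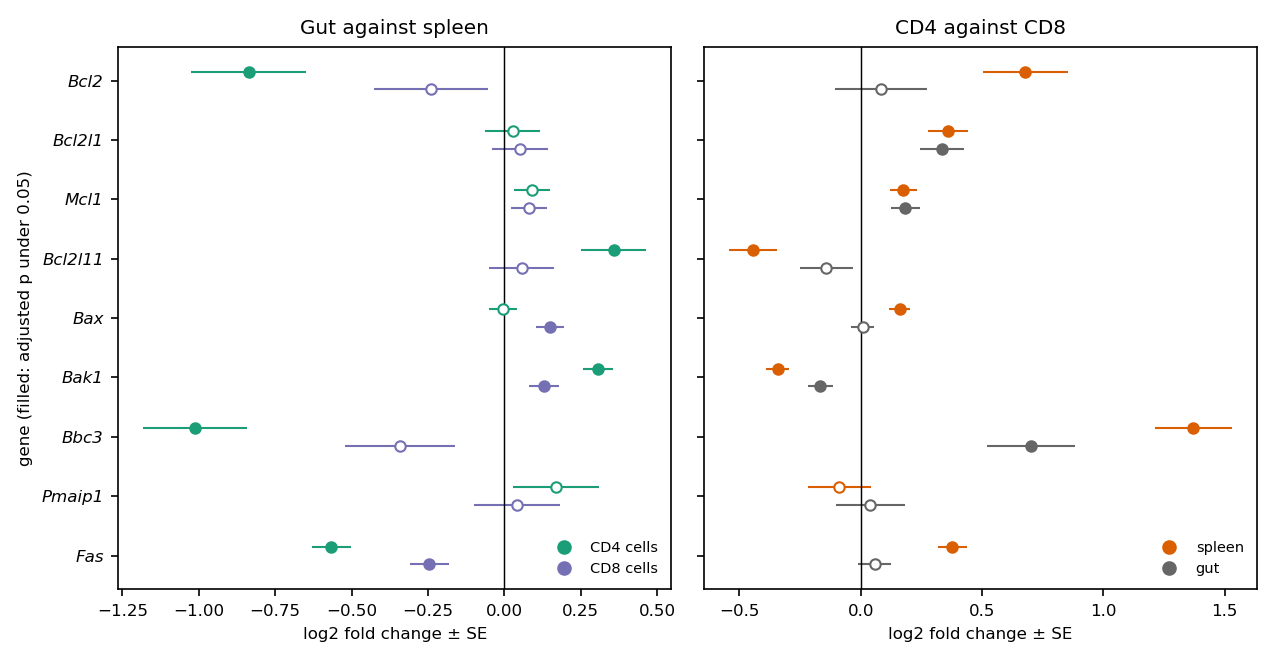
Log2 fold change with its standard error (horizontal axes) for the 9 genes, gut against spleen on the left and CD4 against CD8 on the right; filled points passed an adjusted p of 0.05 (edgeR). In CD4 cells Bbc3 at -1.01, Bcl2 at -0.84 and Fas at -0.57 lay farthest below 0 for gut against spleen.

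Stress genes and genes listed as markers of other cells also moved with tissue. Of 15 stress and immediate early genes, 12 were higher in gut and 0 lower in each cell type, and their summed level ran from 3678 to 10145 CPM in gut CD4 and from 1223 to 2623 CPM in spleen CD4 libraries, and from 2319 to 7723 against 867 to 1765 CPM in CD8 libraries. Of 7 gut epithelial markers, 6 were higher in gut in each cell type, with summed levels from 39.6 to 126 CPM against 18.5 to 24.7 in CD4 libraries and from 67.4 to 138 against 20.9 to 25.4 in CD8 libraries. The epithelial keratin gene Krt8 was at 0 in every spleen CD8 library and at most 10.9 CPM in gut. Of the fibroblast and endothelial markers, nearly all of the sum was Pecam1, which ran from 186 to 249 CPM in spleen CD4 and from 110 to 144 CPM in gut CD4 libraries. Of the dendritic cell markers it was Itgax, at 24.9 to 75.5 CPM in spleen CD4 and 73.8 to 180 CPM in gut CD4 libraries. In CD8 libraries the dendritic cell list summed to 308 to 489 CPM in spleen and 433 to 618 CPM in gut. A sum carried by a single gene does not show which cells were present. The part of these genes in the tissue differences was not tested. In sorted bulk samples, fewer cells of a kind and less RNA per cell cannot be told apart.

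With all 3 batches in a single model, the labelled treatments gave 0 of 9 members past the threshold in each population, and 0 of 12841 genes (0%), in edgeR. At an unadjusted p under 0.05 there was 1 member, Mcl1 in gut CD8 cells (-0.22 ± 0.07, edgeR adjusted p = 0.526). Over all genes, 282, 148, 750 and 953 had an unadjusted p under 0.05 in spleen CD4, spleen CD8, gut CD4 and gut CD8 cells. With DESeq2 the counts of genes called were 0, 0, 8 and 18, with limma voom 0 in each, and with either tool 0 of 9 members were called. Fas, for example, gave 0.47 ± 0.48 in spleen CD4 cells, a standard error as large as the estimate.

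Fitted without batch 190306, the treatment contrast gave higher Fas under anti-IL-2 in all 4 populations. That batch was left out with its opposite direction already known. The p-values and counts of this fit depend on that choice and overstate the support from all batches. Libraries of a batch and treatment also deviated together (r from 0.479 to 0.832). The treatment fits hold batch but not this shared deviation, so their p-values may be too small. In spleen CD4 cells Fas stood at 17.4 and 20.0 CPM under IgG and at 46.6 and 40.5 CPM under anti-IL-2 (batches 181201 and 181212), a log2 change of 1.23 ± 0.10 (edgeR adjusted p = 3.14e-06). Spleen CD8 cells rose from 15.7 and 14.5 CPM to 32.4 and 31.5 CPM (1.07 ± 0.11, edgeR adjusted p = 3.08e-05). In these batches the groups did not overlap in either, and the share of all genes without overlap was not counted. With batch 190306 included they overlapped. Spleen CD4 cells then held 17.4 to 33.7 CPM under IgG and 17.6 to 46.6 CPM under anti-IL-2. Spleen CD8 cells held 14.5 to 26.2 and 13.5 to 32.4 CPM. For gut, only batch 181212 holds both treatments, and each IgG group is 1 library whose spread was taken from the other groups. Gut CD4 cells went from 14.5 CPM under IgG to 26.4 CPM under anti-IL-2 in that batch (26.5 in batch 181201), with a change of 0.85 ± 0.14 (edgeR adjusted p = 0.00219). Gut CD8 cells went from 14.6 to 25.4 CPM (28.4 in batch 181201), a change of 0.84 ± 0.14 (edgeR adjusted p = 0.0021). In batch 190306 the libraries labelled IgG held more Fas in every population: 33.7 against 17.6 CPM in spleen CD4, 26.2 against 13.5 in spleen CD8, 22.7 against 13.0 in gut CD4 and 21.8 against 10.5 in gut CD8 cells.

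Bcl2l1 and Bak1 fell in spleen under anti-IL-2 in the same fit. Bcl2l1 went from 84.0 and 78.0 CPM to 47.5 and 60.5 CPM in CD4 cells (batches 181201 and 181212), a log2 change of -0.58 ± 0.10 (edgeR adjusted p = 0.000945). In CD8 cells it went from 63.0 and 61.6 CPM to 44.2 and 43.4 CPM (-0.52 ± 0.10, edgeR adjusted p = 0.00451). Within each cell type the treatments did not overlap, although the CD8 call was lost without the IgG library of batch 181201 or the anti-IL-2 library of batch 181212 (edgeR adjusted p = 0.0599 and 0.0641, in a range of 0.00171 to 0.0641 over the alternatives). Bak1 went from 189.8 and 189.4 CPM to 147 and 141 CPM in CD4 cells (-0.38 ± 0.06, edgeR adjusted p = 0.000597). In CD8 cells it went from 236 and 229 CPM to 207 and 193 CPM (-0.23 ± 0.06, edgeR adjusted p = 0.0266), a call lost on leaving out any 1 of the 4 libraries (edgeR adjusted p of up to 0.167).

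Bcl2 rose under anti-IL-2 in spleen CD8 cells, from 185 and 172 CPM to 268 and 298 CPM (0.66 ± 0.10, edgeR adjusted p = 0.00159). Spleen CD4 cells showed 0.04 ± 0.10 (edgeR adjusted p = 0.845), and the difference between the cell types, 0.62 ± 0.14, did not pass the threshold (edgeR adjusted p = 0.0804). DESeq2 called it (adjusted p = 0.00191), and the range over the alternatives was 0.00191 to 0.328. In gut CD8 cells Bcl2 stood at 184 CPM under IgG and at 170.1 and 174 CPM under anti-IL-2 (-0.11 ± 0.13, edgeR adjusted p = 0.608). The gut and spleen CD8 responses differed by -0.77 ± 0.16 (edgeR adjusted p = 0.0313), a call lost in 6 of 6 fits that left out 1 library (edgeR adjusted p of up to 0.121).

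Bbc3 fell under anti-IL-2 in gut. It went from 33.2 to 15.4 CPM in gut CD4 cells of batch 181212 (17 in batch 181201), a log2 change of -1.03 ± 0.14 (edgeR adjusted p = 0.000792), and from 28.4 to 10.9 CPM in gut CD8 cells (10.1 in batch 181201), a change of -1.44 ± 0.15 (edgeR adjusted p = 0.000136). Each change rests on a single IgG library, and that of gut CD8 cells held the highest Bbc3 level of any gut CD8 library. In batch 190306 the direction was opposite. Gut CD4 cells held 35.9 CPM under anti-IL-2 against 21.7 under IgG, and gut CD8 cells 16.0 against 10.6 CPM. Over all batches the gut changes were -0.23 ± 0.41 in CD4 and -0.62 ± 0.42 in CD8 cells, neither past the threshold. In spleen the changes were -0.13 ± 0.11 in CD4 and -0.35 ± 0.12 in CD8 cells (edgeR adjusted p = 0.447 and 0.081). The gut response was lower than the spleen response by -0.90 ± 0.18 in CD4 cells (edgeR adjusted p = 0.0103) and by -1.09 ± 0.19 in CD8 cells (edgeR adjusted p = 0.0112). The CD4 difference was lost without the spleen anti-IL-2 library of batch 181201 or the gut anti-IL-2 library of batch 181212 (edgeR adjusted p = 0.0544 and 0.0789), and the CD8 difference without the spleen anti-IL-2 library of batch 181201 (edgeR adjusted p = 0.0893). Over the alternatives the adjusted p ran from 0.00386 to 0.0789 for CD4 and from 0.00292 to 0.0893 for CD8.

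The response of Bcl2l1 also differed by tissue in CD4 cells. It was 57.4 CPM under IgG and 58.3 and 67.6 CPM under anti-IL-2 in gut (0.18 ± 0.13, edgeR adjusted p = 0.403), so that the gut response exceeded the spleen response by 0.76 ± 0.16 (edgeR adjusted p = 0.0154). That call was lost without the spleen anti-IL-2 library of batch 181201 or the gut anti-IL-2 library of batch 181212 (edgeR adjusted p = 0.077 and 0.105, in a range of 0.00296 to 0.105 over the alternatives). Mcl1, Bcl2l11, Bax and Pmaip1 did not pass the threshold in any population. The largest of their changes was 0.44 ± 0.52, for Pmaip1 in gut CD4 cells, and for Mcl1 in gut CD8 cells the change was -0.27 ± 0.09 (edgeR adjusted p = 0.0695).

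In all, 3 of 9 members passed in spleen CD4 cells (20.1% of 13073 genes did), 4 of 9 in spleen CD8 cells (12.1%), 2 of 9 in gut CD4 cells (11.7%) and 2 of 9 in gut CD8 cells (10.7%). The responses of gut and spleen differed for 2 of 9 members in CD4 cells (5.39% of genes) and for 2 of 9 in CD8 cells (2.39%). Between CD8 and CD4 cells edgeR called 0 of 9 members in spleen (0.918% of genes) and 0 of 9 in gut (0.0841%). At an unadjusted p under 0.05 there were 2 members in spleen and 1 in gut, DESeq2 called 1 and 0, and limma voom 0 and 0. The median change over the members was -0.08, 0.04, -0.09 and -0.09 in the order above, beside 0.00, -0.00, 0.01 and 0.01 over all genes.

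The difference between batch 190306 and the others was itself fitted in a model that gave the batch its own treatment effect. The batch was set apart because its direction was known from earlier results of these data. The p-values therefore describe a difference already seen and are not an independent test of it. Fas differed in all 4 populations, by -2.04 ± 0.16, -1.98 ± 0.16, -1.76 ± 0.16 and -2.09 ± 0.16 on the log2 scale in spleen CD4, spleen CD8, gut CD4 and gut CD8 cells (edgeR adjusted p from 2.51e-06 to 8.79e-06). Bcl2 in spleen CD8 cells reversed from a higher to a lower level under the anti-IL-2 label, 116 against 238 CPM in batch 190306, a difference between batches of -1.22 ± 0.25 (edgeR adjusted p = 0.00665). Bak1 differed in spleen CD4 cells by 0.55 ± 0.09 (edgeR adjusted p = 0.000543), in spleen CD8 cells by 0.33 ± 0.09 and in gut CD4 cells by 0.28 ± 0.09. Members called numbered 3, 3, 4 and 1 of 9, where 24.2%, 18.6%, 21.4% and 16.7% of all genes were called. The calls for Bcl2l1 in spleen CD4 (0.76 ± 0.24) and for Bcl2l11 (0.56 ± 0.18), Bak1 and Bbc3 (1.41 ± 0.45) in gut CD4 cells were each lost in at least 2 fits that left out 1 library, as was that for Bak1 in spleen CD8 cells (edgeR adjusted p of up to 0.152, 0.137, 0.114, 0.173 and 0.0798). Without batch as a block the Fas differences did not pass (edgeR adjusted p from 0.0736 to 0.127). Each group of batch 190306 is 1 library, so the spread comes from the other batches.

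**Figure D3:**
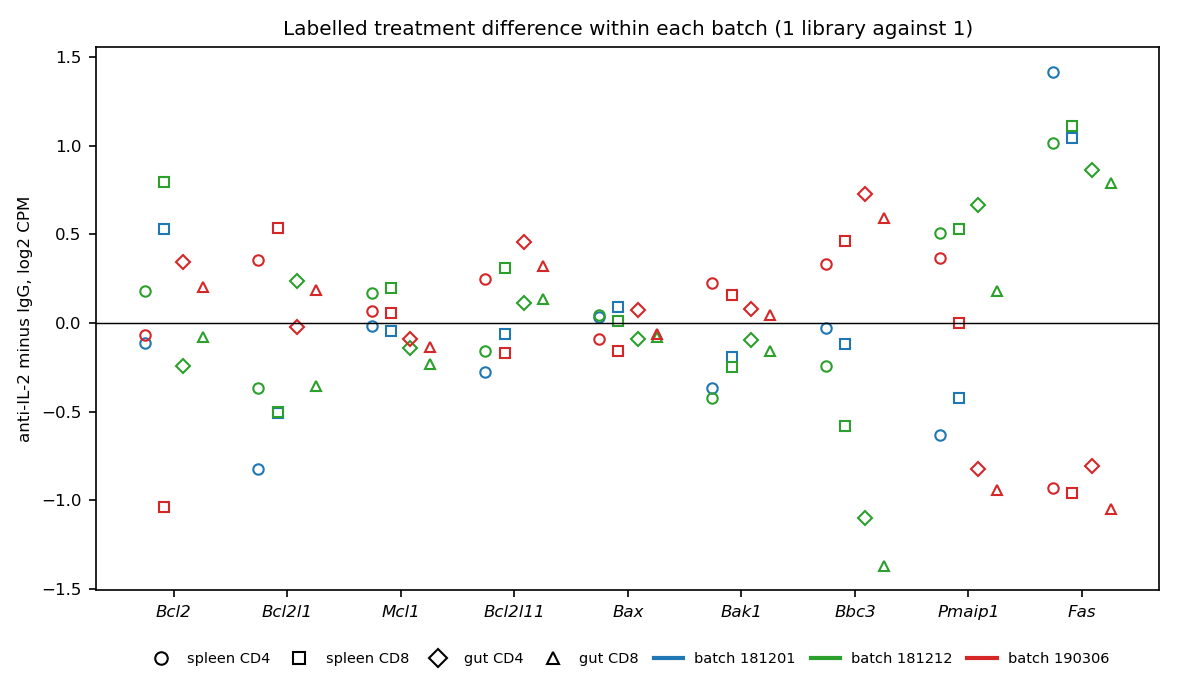
Labelled treatment difference in log2 CPM (vertical axis), anti-IL-2 minus IgG, for each of the 10 within-batch pairs of libraries; colour gives the batch and marker shape the population. Fas lay above 0 in the 6 pairs of batches 181201 and 181212 and below 0 in the 4 pairs of batch 190306, and Bak1 and Bbc3 did the reverse.

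Read pair by pair, without asking which label is right, the members fell into different patterns. The Fas difference had the opposite sign to the Il2ra difference in 10 of 10 within-batch pairs, as it did for 7.27% of 12840 genes. The 10 pairs come from 3 batches, and libraries of a batch and treatment deviated together (r from 0.479 to 0.832), so they are not 10 independent observations. Bak1 and Bbc3 had the same sign as Il2ra in 10 of 10 pairs, as did 7.44% of genes. The Bbc3 differences in spleen were small in batch 181201, -0.03 in CD4 and -0.12 in CD8 cells. Bcl2l1 went with Il2ra in 8 of 10 pairs and in 6 of 6 spleen pairs. Bcl2 went against Il2ra in 5 of 6 spleen pairs and in 0 of 4 gut pairs. Bax went against Il2ra in 6 of 6 spleen pairs and 1 of 4 gut pairs, and Mcl1 and Bcl2l11 each went with it in 6 of 10. The Bax differences in spleen were small, from -0.16 to 0.09, as were those of Bak1 in gut, from -0.16 to 0.08. The share of all genes was not counted for the spleen pairs alone.

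Pmaip1, which passed no treatment test, moved with another measure in the treatment pairs. Within batches its difference was -0.63, 0.51 and 0.37 in spleen CD4 cells (batches 181201, 181212 and 190306) and -0.42, 0.53 and -0.00 in spleen CD8 cells. In gut it was 0.67 and -0.82 in CD4 cells and 0.18 and -0.94 in CD8 cells (batches 181212 and 190306). The mean difference of the 15 stress and immediate early genes was -0.79, 1.77, 0.20, -0.48, 1.75, -0.04, 0.47, -1.22, 0.46 and -1.41 in the same order. The signs matched in 10 of 10 pairs, where those of 0.312% of 12826 genes did, and in the spleen CD8 pair of batch 190306 both values lay close to 0. By the summed CPM of the same 15 genes, which the most abundant of them dominate, the signs matched in 7 of 10 pairs. The relation was noticed in these data and is a description. It was not seen in the same way between tissues. The summed level of these genes was higher in every gut library than in any spleen library of the same cell type. Pmaip1 was higher in gut in 4 of 5 CD4 and 2 of 5 CD8 pairs, and neither tissue difference passed the threshold.

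**Figure D4:**
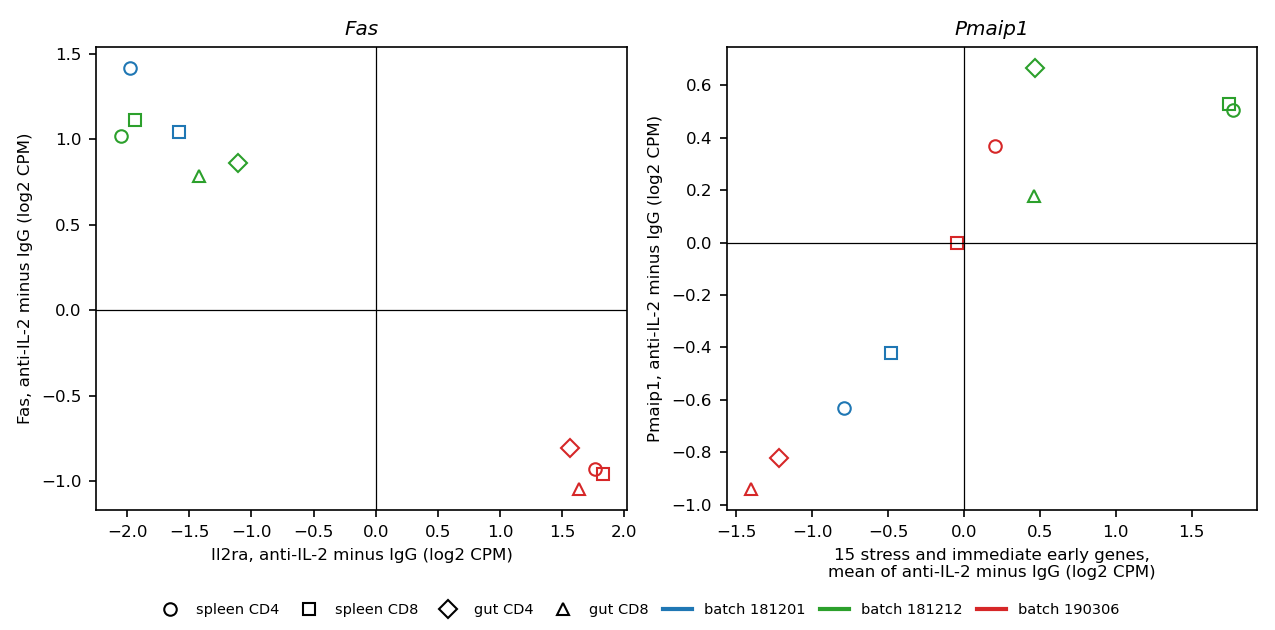
Within-batch difference of Fas against that of Il2ra (left) and of Pmaip1 against the mean of 15 stress and immediate early genes (right), all as anti-IL-2 minus IgG in log2 CPM; each of the 10 points is a pair of libraries, with colour for batch and shape for population. Fas points lie only at the upper left and lower right, and Pmaip1 points only at the lower left and upper right.

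Macrophage markers moved with the Fas pattern. Their mean difference, anti-IL-2 minus IgG over 10 genes, was 2.17, 0.99 and -2.33 in spleen CD4 and 0.94, 0.03 and -1.52 in spleen CD8 cells (batches 181201, 181212 and 190306), and 1.38 and -1.58 in gut CD4 and 2.45 and -0.74 in gut CD8 cells (batches 181212 and 190306). The summed level of the list was low, from 13.6 to 177 CPM over all libraries, with 0 to 4 of the 10 genes at 0 in a library. In the spleen CD8 pair of batch 181212 the mean difference was 0.03 while the summed level went from 31.7 CPM under IgG to 51.6 CPM under anti-IL-2. Summed levels differed in the same direction as Fas in 10 of 10 pairs, and the share of all genes doing so was not counted. T cell identity genes also had the direction of Fas in most pairs, though not in gut CD4 cells of batch 190306. In spleen CD4 cells of batch 190306, neutrophil markers summed to 52.8 CPM under anti-IL-2 and 1.18 under IgG (33.9 and 1.02 in CD8). Erythroid markers stood at 39.1 and 2.40 CPM in spleen CD4 cells of batch 181201. The part of these markers in the Fas differences was not tested.

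Markers of NK cells differed between the treatment labels in CD8 libraries, in opposite directions in batch 190306 and in the other batches. The summed level of 4 genes in spleen CD8 cells was 96.3, 82.5 and 5.98 CPM under IgG and 16.2, 11 and 27.6 CPM under anti-IL-2 (batches 181201, 181212 and 190306). In gut CD8 cells it was 100.3 and 6.66 CPM under IgG and 9.57 and 30.9 CPM under anti-IL-2 (batches 181212 and 190306). The sum went with Il2ra in 5 of 5 CD8 pairs and in 4 of 5 CD4 pairs, and was nearly all Klrb1c, which encodes the receptor NK1.1. Ncr1, a defining NK cell receptor gene, was at most 0.990 CPM in CD8 libraries, and Klra4 was at 0 in them all. The part of these markers in the treatment differences was not tested.

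Of 13 death receptors, ligands and adaptors other than Fas, 8 were higher and 1 lower in gut than in spleen CD4 cells, where 49.3% of all genes differed. In CD8 cells 8 were higher and 0 lower, where 47.8% of all genes differed. Fasl, the FAS ligand, was higher by 1.48 ± 0.12 and 1.05 ± 0.11, Tnfsf10, encoding the death ligand TRAIL, by 1.43 ± 0.14 and 1.37 ± 0.14, and the TNF receptor gene Tnfrsf1a by 0.43 ± 0.07 and 0.49 ± 0.07, in CD4 and CD8 cells. The median of the list was 0.42 in CD4 and 0.21 in CD8 cells. Under anti-IL-2 without batch 190306, 1 rose and 4 fell in spleen CD4 cells (20.1% of all genes passed), with Fasl at -0.68 ± 0.08, Tnfsf10 at -0.41 ± 0.06 and Tnfrsf1b at -0.31 ± 0.06. In spleen CD8 cells 0 of 13 passed in edgeR (12.1% of all genes did), with 3 at an unadjusted p under 0.05. In gut 1 rose in CD4 cells (Tnfrsf1b, 0.42 ± 0.07, where 11.7% of all genes passed), and in gut CD8 cells (10.7% of all genes) Tnfsf10 rose by 0.75 ± 0.08 and Tnf changed by -1.36 ± 0.22.

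The remaining BCL2 family genes went partly with tissue. Bcl2a1b and Bcl2a1d, survival genes of the A1 cluster whose near-identical copies make their counts uncertain, were higher in gut by 0.77 ± 0.05 and 0.84 ± 0.12 in CD4 cells and by 0.95 ± 0.05 and 0.89 ± 0.12 in CD8 cells. Of 4 other pro-apoptotic members tested, Bid, which links caspase-8 to mitochondria, and the BH3-only gene Bmf were lower in gut (-0.71 ± 0.05 and -1.30 ± 0.13 in CD4 cells, -0.41 ± 0.05 and -0.48 ± 0.12 in CD8 cells). Bad was higher by 0.23 ± 0.07 in CD4 and 0.30 ± 0.07 in CD8 cells. The tissue differences of Bmf and Bid were smaller in CD8 cells by 0.82 ± 0.17 and 0.30 ± 0.07 (edgeR adjusted p = 0.0131 and 0.0272). None of the 4 other survival or 4 other pro-apoptotic genes passed for anti-IL-2 in any population without batch 190306 (edgeR). The share of all genes that passed was 20.1% in spleen CD4 and 12.1% in spleen CD8 cells, and lower in gut. At such shares a list this short can hold no called gene. There were 7 and 1 gene-by-population results at an unadjusted p under 0.05.

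Among 13 caspase and inhibitor genes, 7 were higher and 3 lower in gut CD4 cells and 3 higher and 4 lower in gut CD8 cells, beside the 49.3% and 47.8% of all genes that differed in either direction. Against CD8 cells, CD4 cells held more Birc3, an inhibitor of apoptosis (0.69 ± 0.07 in spleen and 0.73 ± 0.07 in gut). Under anti-IL-2 without batch 190306, Birc5, encoding survivin and tied to cell division, fell in spleen CD4 (-0.81 ± 0.08) and spleen CD8 cells (-0.40 ± 0.07). The transcription factor p53 drives Bbc3, Pmaip1, Bax and Fas after DNA damage. Of 12 genes of p53 and its other targets, 4 were higher and 3 lower in gut CD4 cells and 5 higher and 1 lower in gut CD8 cells, again beside 49.3% and 47.8% of all genes. Cdkn1a led with 1.56 ± 0.15 in CD4 and 0.89 ± 0.17 in CD8 cells.

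The transcripts most like each member over the 22 libraries were found by Pearson correlation of log2 CPM among 7379 genes. The libraries share batch, depth and cell type, so these values are descriptions. Bak1 had the closest companions, Prelid1 (r = 0.986), Gnai2 (0.981) and Arhgdia (0.976), followed by Bax with Tmem161a (0.951), Fance (0.941) and Gtpbp6 (0.94). Fas was most like Decr1 (0.926), Ift80 (0.909) and Msi2 (0.902), and Mcl1 most like Ddx5 (0.919). The nearest to Pmaip1 was Tra2a (0.911), to Bbc3 Ctse (0.91), to Bcl2l1 Rxra (0.907), to Bcl2 Asb13 (0.902) and to Bcl2l11 Tacc1 (0.857). Among the members themselves the strongest relation was that of Mcl1 and Bak1 (r = -0.706), and the highest positive r was 0.615, for Bcl2l1 and Bbc3.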

How the data were processed

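Stranded mRNA libraries of 22 sorted T cell samples were analysed from the raw read counts per gene symbol that the authors deposited. Per the submitters' processing notes, TopHat2, HTSeq 0.9.1 and the mm10 build were used; the annotation, strand setting and filters are not given in the sources used here. Of 24091 symbols, 97.6% matched GENCODE M21. Groups and batches were taken from the labels. Each library held between 14628806 and 24518362 counts, and the lowest count of any member in a library was 185.

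Genes were filtered with filterByExpr, scaled by TMM and tested with edgeR 4.0.16 in R 4.3.3 (robust glmQLFit, quasi-likelihood F test, Benjamini-Hochberg adjustment over all genes, threshold 0.05, prior count 2). Treatment was fitted over the 8 groups with batch as a block, over all batches and without batch 190306, and again with a treatment effect of its own for that batch. Tissue and cell type were fitted over 4 populations with 6 blocks of batch and treatment. The blocks come from the labelled batches: deviations from group means correlated at 0.479 to 0.832 (31 library pairs) within a batch and treatment, and at -0.0696 to 0.217 (10 pairs) between treatments of a batch. Standard errors are those of the log2 fold change. The scripts were tested on simulated data.

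Alternatives were DESeq2 1.42.0, limma 3.58.1 voom, RLE size factors, library size alone, no low-count filter, no block, other groupings of the model and leaving out each library. The members, gene lists and motifs were chosen with earlier results of these data known. All 9 members are named, of each pathway list at most 3 genes per comparison with the smallest p among those called (mean log2 CPM 2 or more), and for each member the 3 most correlated genes (mean log2 CPM 4 or more); genes set beside one named in another comparison were added after their values were seen. A gene that this rule names is not reported here.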

Additional observations from a re-analysis of the deposited data

Results flagged for a closer look

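For 5 results the same contrast differed between 2 groups by a test of the difference itself (edgeR quasi-likelihood, interaction contrasts). In CD4 cells the log2 response to anti-IL-2, without batch 190306, was higher in gut than in spleen by 0.757 for Bcl2l1 and differed by -0.901 for Bbc3. In CD8 cells the gut response differed from the spleen response by -0.771 for Bcl2 and by -1.09 for Bbc3. The gut to spleen difference of Fas was 0.32 higher in CD8 than in CD4 cells. Each of the 4 gut responses rests on 1 IgG library, and each of the 5 calls was lost on leaving out at least 1 library.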

How the results depend on the processing

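Counts below are members past the threshold, of 9. Over all alternatives 215 counts stayed within 1.5 times and 57 did not, and of the single member results 2319 stayed on their side of the threshold, 112 lost a call, 17 gained one and 0 reversed. Without the replicate block, the gut against spleen responses to treatment gave 1 (CD4) and 1 (CD8), batch 190306 against the others 1, 1, 0 and 0 (spleen CD4, spleen CD8, gut CD4, gut CD8), gut against spleen 3 and 0 (CD4, CD8), CD4 against CD8 3 and 0 (spleen, gut) and the dependence of the tissue difference on cell type 0; the treatment counts without batch 190306 were 3, 3, 2 and 2. DESeq2 gave 1 for the treatment effect of CD8 against CD4 in spleen, 2 for batch 190306 in gut CD8 cells and 2 for that dependence, and voom 2 for batch 190306 in gut CD8 cells. Library size alone gave 1 for batch 190306 in gut CD4 cells and 1 for gut against spleen in CD8 cells, and no low-count filter gave 2 and, for the dependence on cell type, 0. With 8 groups and batch as a term, gut against spleen gave 3 and 1, CD4 against CD8 in gut 1 and the dependence 0; without batch 190306 these were 0 (CD8), 1 and 0. Leaving out 1 library gave 0 to 0 for treatment over all batches; 3 to 3, 2 to 4, 2 to 2 and 2 to 2 for treatment without batch 190306; 0 to 3 and 0 to 1 for gut against spleen responses (CD4, CD8); 0 to 1 and 0 to 0 for CD8 against CD4 responses (spleen, gut); 2 to 3, 2 to 3, 1 to 1 and 1 to 1 for batch 190306; 5 to 6 and 2 to 4 for gut against spleen; 8 to 8 and 2 to 4 for CD4 against CD8; and 0 to 2 for the dependence. In the treatment fits without batch 190306, leaving out a gut IgG library of batch 181212 left no value, and batch 190306 was set against the others only where both treatments remained inside and outside it. Over fits that left out 1 library, genes called numbered 5824 to 6094 (CD4) and 5566 to 5899 (CD8) for gut against spleen. With all libraries they numbered 6329 and 6141 of 12841. For CD4 against CD8 they numbered 6877 to 7325 in spleen and 5169 to 5718 in gut (7459 and 5906 with all libraries). For the dependence on cell type they numbered 315 to 829 (597 with all libraries). The cause was not tested. Gut treatment effects without batch 190306 rest on 1 IgG library each, and Bbc3 and Fas had the fewest counts.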

Other observations

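Of 6 FOXO and ER stress regulators tested, 4 were higher and 2 lower in gut than in spleen in each cell type, where 49.3% (CD4) and 47.8% (CD8) of all genes differed in either direction. Foxo3, a FOXO transcription factor that can drive Bcl2l11 and Bbc3, was higher in gut by 0.46 ± 0.07 in CD4 and 0.56 ± 0.07 in CD8 cells (log2 ± SE, edgeR adjusted p = 2.25e-05 and 4.24e-06). Atf4, a transcription factor of the integrated stress response, was higher by 1.08 ± 0.16 and 0.96 ± 0.16. The stress and immediate early genes given above moved with tissue too, and their part was not tested.

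Of 7 survival cytokine receptor genes, 3 were higher and 1 lower in gut than in spleen CD4 cells, and 4 higher and 2 lower in CD8 cells, beside the same shares of all genes. Il7r, the IL-7 receptor chain, was lower in gut CD4 cells (-0.50 ± 0.17, edgeR adjusted p = 0.0264). It was higher in CD4 than in CD8 cells by 1.47 ± 0.16 in spleen and 1.53 ± 0.18 in gut. Il21r, the IL-21 receptor, was higher in gut by 0.89 ± 0.06 in CD4 and 0.95 ± 0.06 in CD8 cells. Under anti-IL-2 without batch 190306, Il2rb, the shared IL-2 and IL-15 receptor chain, fell in spleen CD4 cells (-0.49 ± 0.08, edgeR adjusted p = 0.000729), and Il21r rose in gut CD4 (0.54 ± 0.09) and gut CD8 cells (0.51 ± 0.09).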
